A study of Mus musculus with 16 samples.

Results

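The FoxO and Klf quiescence genes are 10 of the 55450 genes in the deposited count table, picked by gene name and not by any measured value: the forkhead factors *Foxo1*, *Foxo3*, *Foxo4* and *Foxp1*, the Krüppel-like factors *Klf2*, *Klf3* and *Klf6*, the egress receptor *S1pr1*, the antiproliferative gene *Btg1* and the glucocorticoid-induced gene *Tsc22d3*. RNA came from CD4+ and CD8+ tumor-infiltrating lymphocytes (TILs) of WT and *Sirt2*-/- mice, whose s.c. tumors were of B16F10, a mouse melanoma line. Each of the 4 groups (CD4+ WT, CD4+ *Sirt2*-/-, CD8+ WT and CD8+ *Sirt2*-/-) had 4 libraries. Every animal carried a tumor, no further treatment is labeled, and the labels give no age. The *Sirt2* deletion is that of a knockout strain and is not labeled as limited to T cells, so the tumor's other cells may lack *Sirt2* too. The labels do not say whether CD4+ and CD8+ libraries of the same number came from the same mouse. Whether loss of the deacetylase SIRT2 changes transcripts of these genes in TILs, and whether it does so alike in both cell types, are the questions that the 4 groups address. In bulk RNA, fewer cells of a type and less RNA per cell cannot be told apart.

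FoxO factors hold resting T cells in quiescence. When growth factor and antigen receptor signals activate PI3K, the kinases AKT and SGK phosphorylate FoxO proteins, which then leave the nucleus. In the nucleus FoxO1 promotes genes for survival and for circulation through lymphoid organs, among them *Klf2* and *Il7r*, and KLF2 in turn promotes *S1pr1*, the receptor by which T cells leave tissues along a lipid gradient. FoxO1 and FoxO3 proteins are known substrates of SIRT2. RNA levels, which are what was measured here, do not show acetylation or nuclear localization.

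Of the 10 genes, 8 matched entries of the RefSeq promoter table (GRCm38.p6; 250 bases before to 50 after a start site), with 12 promoters among them. GTAAACA, the core of the FoxO element, was searched on both strands and occurred in 1 of the 8 genes, *Btg1*, against 3.65% of all 32851 promoters. CTANNNNTAG, a loose form of the site of MEF2 factors that allows any base at each N, occurred in 1 of the 8, *Klf2*. It occurred in 3.69% of all promoters. The CACCC box of Krüppel-like factors occurred in 4 of the 8 (*Foxp1*, *Klf2*, *Klf3* and *Tsc22d3*), against 57.5% of all promoters, and TATAAA in *Btg1*, against 13.6%. The stretches of *Btg1* and *Klf2* are shown because they hold the FoxO element and the MEF2 site. The motif is in capitals, at 204 bases before the start site in *Btg1* (chr10:96616771-96616870, plus strand) and at 118 bases before it in *Klf2* (chr8:72318892-72318991, plus strand). Neither stretch overlaps an annotated exon. A gene counts once if any of its promoters matches, while the shares over all promoters count each promoter, so these units differ. A match describes the letters and shows no binding.
Btg1: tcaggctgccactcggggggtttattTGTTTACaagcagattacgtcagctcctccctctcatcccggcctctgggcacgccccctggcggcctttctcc
Klf2: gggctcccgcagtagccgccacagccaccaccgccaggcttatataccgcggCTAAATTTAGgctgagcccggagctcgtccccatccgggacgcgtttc

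Libraries held 28000949 to 62407851 counts on genes. A set of 3 libraries had fewer than 15000 genes with a count: CD4+ *Sirt2*-/- replicate 4 (8169 genes), CD4+ WT replicate 1 (12587) and CD8+ WT replicate 1 (14411), against 17730 to 22138 in the other 13. Results for the 10 genes and counts over gene lists are therefore given with all libraries and without these. *Sirt2* measured 12.4, 10.3, 10.6 and 0 CPM (counts scaled to the library's total) in CD4+ *Sirt2*-/- replicates 1 to 4 and 73.5, 41.2, 41.5 and 45.9 in CD4+ WT replicates, and 9.18, 10.1, 6.63 and 7.21 against 48.6, 35.8, 32.8 and 34.5 in CD8+ TILs, so the genotypes did not overlap in either cell type. *Cd4* lay between 383 and 622 CPM in CD4+ libraries and at most 4.93 CPM in CD8+ libraries, and *Cd8a* between 957 and 1281 CPM in CD8+ and at most 33.6 CPM in CD4+ libraries, as labeled. *Foxp3*, the factor that defines regulatory T cells, measured 898, 675, 602 and 360.5 CPM in CD4+ WT and 311, 502, 674 and 393 CPM in CD4+ *Sirt2*-/- replicates, and at most 6.77 CPM in CD8+ libraries. Markers of other cells, summed per library, reached 95.7 CPM for melanoma (CD4+ WT replicate 1, with 81.4 CPM in CD4+ *Sirt2*-/- replicate 4 and at most 15.7 CPM in the other 14 libraries), 36.6 CPM for myeloid cells, 59.4 CPM for fibroblasts and 12.2 CPM for B cells and 9.05 CPM for erythroid cells. The NK list summed to 15.7 to 48.8 CPM in CD4+ and, mostly through *Eomes*, to 199 to 420.4 CPM in CD8+ libraries, and the endothelial list to 34.2 to 166 CPM over all libraries, nearly all of it *Pecam1*, which T cells also express; *Tek*, *Emcn* and *Cldn5* of that list were at 0 in every CD4+ *Sirt2*-/- library. *Pecam1* was highest in replicate 1 of both *Sirt2*-/- groups (166 CPM in CD4+ and 79.0 CPM in CD8+ TILs) and was lower in CD8+ than in CD4+ WT TILs (log2 fold change −1.46, standard error 0.16, adjusted p = 0.000235 from edgeR). The Y-linked genes *Ddx3y*, *Uty*, *Eif2s3y* and *Kdm5d* summed to 298 and 276 CPM in WT replicate 2 of CD4+ and CD8+ TILs, to at most 57.4 CPM in the other WT libraries, all of which had *Xist* above 561 CPM, and to at most 0.454 CPM in *Sirt2*-/- libraries. Every WT library thus lay above every *Sirt2*-/- library for these Y-linked genes, in both cell types. The sex of the mice is not labeled. The genotype comparisons cannot separate loss of *Sirt2* from a difference in sex between the groups, since Y-linked reads went along with genotype. The part of such a difference in the results was not tested.

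Levels of different genes are compared per kilobase of exon (CPM per kb). On that scale *Btg1* was the most abundant of the 10 in every group, with means from 99.2 CPM per kb in CD8+ WT to 168 in CD4+ *Sirt2*-/- TILs, and *Foxo4* the least abundant, with 3.11 to 9.24. *S1pr1* (57.9 to 120.5), *Klf2* (74.3 to 90.5) and *Klf6* (51.6 to 76.9) came next after *Btg1*. Of the FoxO factors, *Foxo1* and *Foxo3* lay close together, at 17.5 and 13.0 CPM per kb in CD4+ WT TILs and at 13.1 and 9.21 in CD8+ WT TILs. All other levels are CPM of the same gene across libraries. All 10 genes passed the filter on low counts in every comparison.

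*Foxo1* (ENSMUSG00000044167.6; GRCm38 chromosome 3, 52268336 to 52353221, plus strand) encodes the FoxO factor that dominates in T cell homing and survival. It measured 109, 163, 164 and 169 CPM in CD4+ WT replicates 1 to 4 and 185, 176, 181 and 113 CPM in CD4+ *Sirt2*-/- replicates. In CD8+ TILs it measured 109.7, 125, 113 and 105 CPM in WT and 135, 113, 90.6 and 104 CPM in *Sirt2*-/- replicates. Of the CD4+ libraries, 6 lay above every CD8+ library, and the remaining pair, WT replicate 1 and *Sirt2*-/- replicate 4, are those with few genes detected. Exons of *Foxo1* overlap the antisense gene *Gm20402* over 674 bases, and since the strand setting of the counting is not given in the sources used here, reads there cannot be assigned with certainty; *Gm20402* had at most 657 counts in a library and *Foxo1* at least 3383.

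*Foxo3* (ENSMUSG00000048756.11; chromosome 10, 42181841 to 42276755, minus strand), a FoxO factor of apoptosis and cytokine restraint, measured 60.0, 111, 111 and 113 CPM in CD4+ WT and 128, 107, 93.3 and 226 CPM in CD4+ *Sirt2*-/- replicates. In CD8+ TILs it measured 66.3, 73.2, 66.6 and 72.9 CPM in WT and 80.4, 56.7, 75.1 and 54.8 CPM in *Sirt2*-/- replicates. The highest value of all, in CD4+ *Sirt2*-/- replicate 4, and the lowest of the CD4+ values, in WT replicate 1, fell on the 2 CD4+ libraries with few genes. *Foxo4* (ENSMUSG00000042903.8; chromosome X, 101254528 to 101260873, plus strand), the third FoxO factor expressed here, measured 33.8, 30.7, 25.3 and 39.0 CPM in CD4+ WT and 29.6, 25.5, 27.9 and 24.3 CPM in CD4+ *Sirt2*-/- replicates. It measured 8.62, 12.4, 13.1 and 9.20 CPM in CD8+ WT and 12.8, 11.6, 12.1 and 10.2 CPM in CD8+ *Sirt2*-/- replicates. Every CD4+ library thus lay above every CD8+ library for *Foxo4*, whichever the genotype, while the genotypes overlapped within each cell type.

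*Foxp1* (ENSMUSG00000030067.17; chromosome 6, 98925338 to 99522721, minus strand), a forkhead factor that keeps naive T cells quiescent and competes with FoxO1 at *Il7r*, measured 115, 167, 208 and 172 CPM in CD4+ WT and 294, 187, 169.7 and 173 CPM in CD4+ *Sirt2*-/- replicates. In CD8+ TILs it measured 255, 258, 275 and 242 CPM in WT and 284, 266, 191 and 219 CPM in *Sirt2*-/- replicates. It was the 1 gene of the 10 whose means were higher in CD8+ than in CD4+ TILs of both genotypes, and CD8+ and CD4+ WT libraries did not overlap. Its exons overlap those of *Gm20696* on the same strand over 300 bases.

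*Klf2* (ENSMUSG00000055148.7; chromosome 8, 72319033 to 72321656, plus strand), whose product keeps T cells quiescent and promotes *S1pr1*, measured 118, 110.5, 163 and 194 CPM in CD4+ WT and 356, 157, 143 and 12.1 CPM in CD4+ *Sirt2*-/- replicates. In CD8+ TILs it measured 184, 115, 123 and 149 CPM in WT and 242, 137, 109 and 60.5 CPM in *Sirt2*-/- replicates. The 4 group means, from 137 to 167 CPM, were closer to each other than the libraries within the *Sirt2*-/- groups, which spanned a 29.5-fold range in CD4+ and a 4.00-fold range in CD8+ TILs against 1.76-fold and 1.60-fold in WT. The lower end of the CD4+ *Sirt2*-/- range, 12.1 CPM, is replicate 4, the library with 8169 genes detected. The other CD4+ *Sirt2*-/- libraries lay between 143 and 356 CPM. *Klf3* (ENSMUSG00000029178.14; chromosome 5, 64803388 to 64832901, plus strand), a repressor of the family, ranged from 76.4 to 150.5 CPM in CD4+ WT, 76.1 to 238 in CD4+ *Sirt2*-/-, 89.0 to 127 in CD8+ WT and 85.4 to 175 in CD8+ *Sirt2*-/- TILs, so all 4 groups overlapped. *Klf6* (ENSMUSG00000000078.7; chromosome 13, 5861482 to 5870394, plus strand), a family member that responds to activation in many cell types, ranged from 198 to 369 CPM in CD4+ WT, 308 to 395 in CD4+ *Sirt2*-/-, 200.3 to 269 in CD8+ WT and 189 to 267 in CD8+ *Sirt2*-/- TILs. Its *Sirt2*-/- groups did not overlap between cell types.

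*S1pr1* (ENSMUSG00000045092.8; chromosome 3, 115710433 to 115715072, minus strand) measured 270.1, 260.4, 339 and 307 CPM in CD4+ WT and 602, 404, 294 and 168 CPM in CD4+ *Sirt2*-/- replicates. In CD8+ TILs it measured 219, 152, 186 and 168 CPM in WT and 267, 186, 141 and 111 CPM in *Sirt2*-/- replicates. Replicate 1 was the highest and replicate 4 the lowest in both *Sirt2*-/- groups, and in WT every CD4+ library exceeded every CD8+ library. *Btg1* (ENSMUSG00000036478.8; chromosome 10, 96617006 to 96622809, plus strand), which recruits the mRNA deadenylation machinery and restrains proliferation, measured 446, 711, 822 and 696 CPM in CD4+ WT and 1109.6, 1039.5, 819.6 and 586 CPM in CD4+ *Sirt2*-/- replicates. It measured 476, 493, 580.3 and 544 CPM in CD8+ WT and 724, 573, 510.0 and 574 CPM in CD8+ *Sirt2*-/- replicates, and the groups overlapped in every comparison. *Tsc22d3* (ENSMUSG00000031431.13; chromosome X, 140539528 to 140600659, minus strand), which encodes the glucocorticoid-induced leucine zipper GILZ, measured 69.9, 93.8, 104 and 96.3 CPM in CD4+ WT and 169, 107, 102 and 143 CPM in CD4+ *Sirt2*-/- replicates. It measured 48.4, 33.8, 43.1 and 45.6 CPM in CD8+ WT and 98.3, 50.4, 36.7 and 33.9 CPM in CD8+ *Sirt2*-/- replicates. CD4+ libraries lay above CD8+ libraries of the same genotype without overlap, although CD8+ *Sirt2*-/- replicate 1 lay just under the lowest CD4+ *Sirt2*-/- library.

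**Figure D1:**
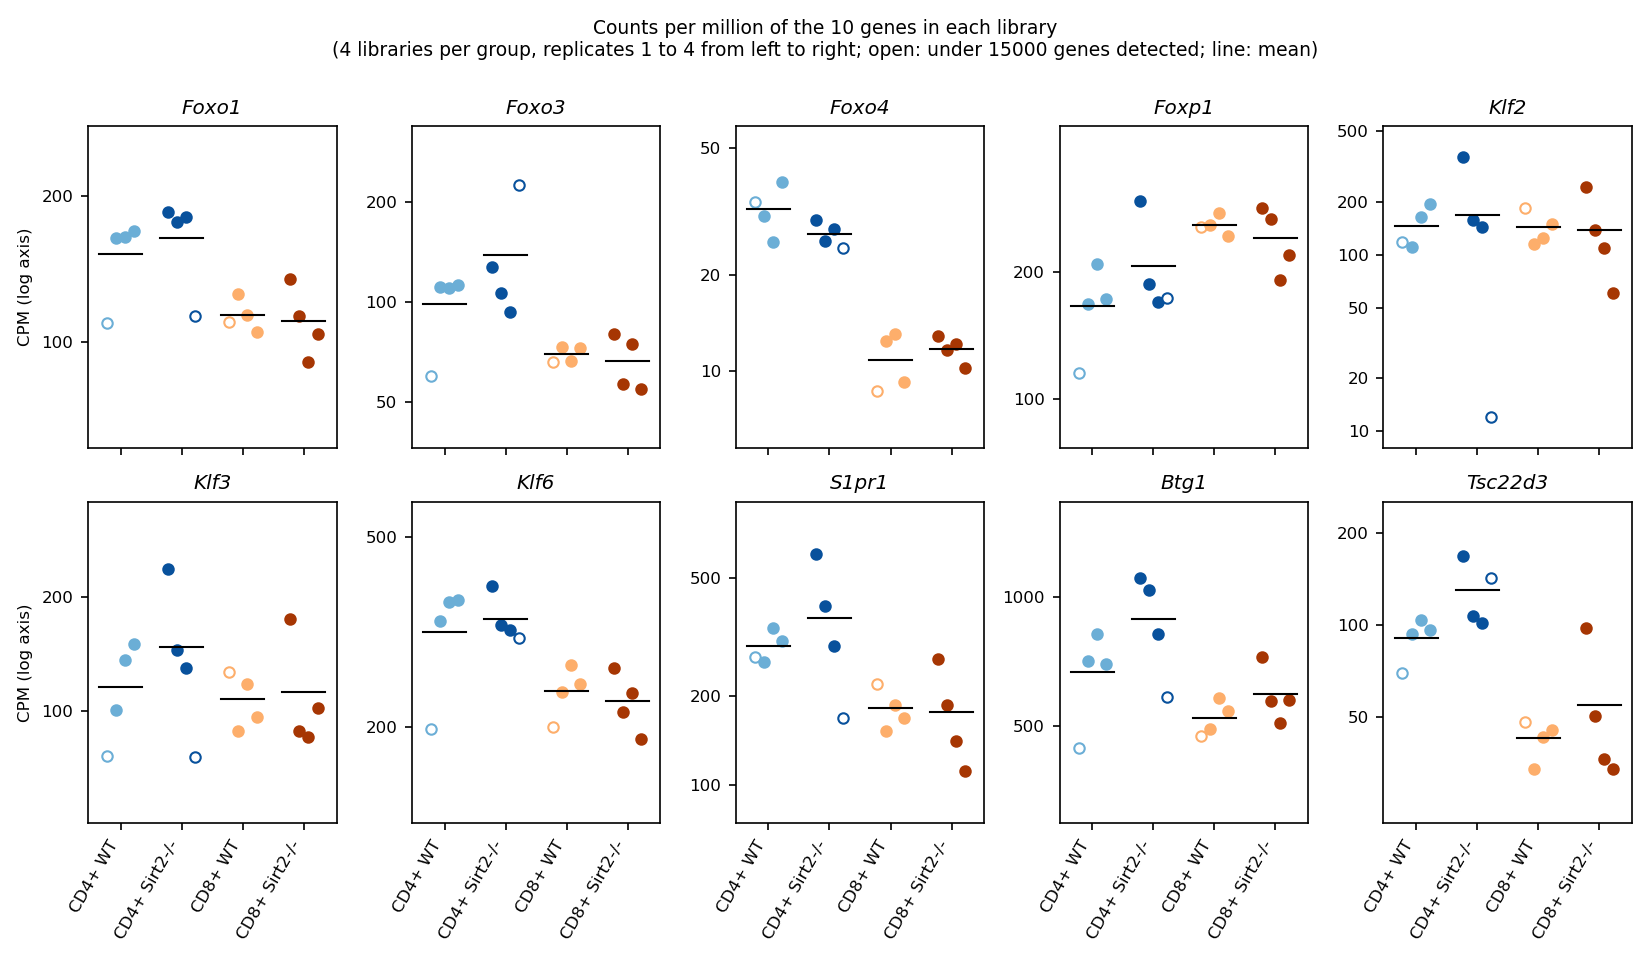
CPM of each of the 10 genes (log axis) in the 16 libraries, by group; points are libraries in the order of replicates 1 to 4, open points are the 3 libraries with under 15000 genes detected and lines are group means of 4. *Foxo4* separates CD4+ from CD8+ libraries in both genotypes, and *Klf2* spreads most within the *Sirt2*-/- groups.

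Ordered by mean, CD4+ *Sirt2*-/- TILs were highest for 8 of the 10 genes, with *Foxo4* highest in CD4+ WT and *Foxp1* in CD8+ WT TILs. Neighbors in the order overlapped in their libraries for every gene except at 2 steps, from CD4+ *Sirt2*-/- to CD8+ *Sirt2*-/- TILs for *Foxo4* and from CD4+ WT to CD8+ WT TILs for *S1pr1*.

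Between genotypes in CD4+ TILs, 0 of the 10 genes passed the threshold (edgeR's quasi-likelihood test, Benjamini–Hochberg adjusted p below 0.05 over 15070 genes), and 0 passed with DESeq2 or limma-voom. Of all genes tested, 0% passed, and *Sirt2* itself did not pass in this fit (log2 fold change −2.60, standard error 1.26, adjusted p = 1.0 from edgeR), although it did without the libraries with few genes (−1.95, standard error 0.18, adjusted p = 0.00163 from edgeR). At an unadjusted p below 0.05 there was 1 of the 10, *Tsc22d3*, against 1.26% of all genes. It was higher in *Sirt2*-/- TILs, with 130.0 ± 31.6 CPM against 91.0 ± 14.7 CPM (SD, n = 4) and a log2 fold change of 0.51 (standard error 0.22, 95% interval 0.016 to 0.996, adjusted p = 1.0 from edgeR). None of the 10 separated the genotypes without overlap of libraries, as 3.15% of all genes did. The fold change was above 0 for 9 of the 10, against 42% of all genes, and *Foxo4* was the exception at −0.27 (standard error 0.38). The median was 0.31 over the 10, against −0.11 over all genes.

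For *Foxo1* the log2 fold change in CD4+ TILs was 0.11 (standard error 0.22, 95% interval −0.38 to 0.60), and for *Foxo3* it was 0.48 (standard error 0.31, 95% interval −0.21 to 1.17). *Klf2* had the widest interval, −1.45 to 1.83 around 0.19, so a change of more than 1 on the log2 scale in either direction lies within it. Without CD4+ *Sirt2*-/- replicate 4 and CD4+ WT replicate 1, 0 of the 10 passed, as against 0.0374% of 16034 genes, and the intervals narrowed. *Btg1* was then 0.41 (standard error 0.14, unadjusted p = 0.0106 and adjusted p = 0.848 from edgeR) and *S1pr1* 0.52 (standard error 0.22, unadjusted p = 0.0354 and adjusted p = 0.99 from edgeR). *Foxo3* and *Klf6* changed sign without these libraries, to −0.029 (standard error 0.14) and −0.037 (standard error 0.12). The median over the 10 stayed at 0.30, but fell to 0.026 when CD4+ *Sirt2*-/- replicate 1 alone was left out, with *S1pr1* at −0.032 and *Klf2* at −0.49.

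Between genotypes in CD8+ TILs, 0 of the 10 passed with edgeR, DESeq2 or limma-voom, where 0.00654% of 15302 genes, that is *Sirt2* alone (log2 fold change −2.22, standard error 0.21, adjusted p = 0.00663 from edgeR), passed with edgeR. At an unadjusted p below 0.05 there were 0 of the 10 against 3.78% of all genes, and 0 separated the genotypes without overlap against 2.88% of all genes. Fold changes were above 0 for 4 and below 0 for 6 genes, where 51.9% of all genes were above 0. The median was −0.057 over the 10, against 0.011 over all genes. The fold changes ran from −0.12 for *Foxp1* (standard error 0.13) to 0.34 for *Tsc22d3* (standard error 0.30). The intervals were narrow for *Foxo1* (−0.33 to 0.23), *Foxo3* (−0.36 to 0.20) and *Klf6* (−0.35 to 0.17). They were wider for *Foxo4* (−0.33 to 0.53), *S1pr1* (−0.59 to 0.46), *Tsc22d3* (−0.32 to 0.996) and *Klf2* (−0.82 to 0.66). Without CD8+ WT replicate 1, 0 of the 10 passed, against 0.0439% of 15943 genes. The median over the 10 was then 0.054, with 6 genes above and 4 below 0. Without CD8+ *Sirt2*-/- replicate 1, the median over the 10 was −0.16, *Klf2* was at −0.49, *S1pr1* at −0.31, *Tsc22d3* at −0.084 and *Klf3*, at 0.041 with all libraries, at −0.23.

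**Figure D2:**
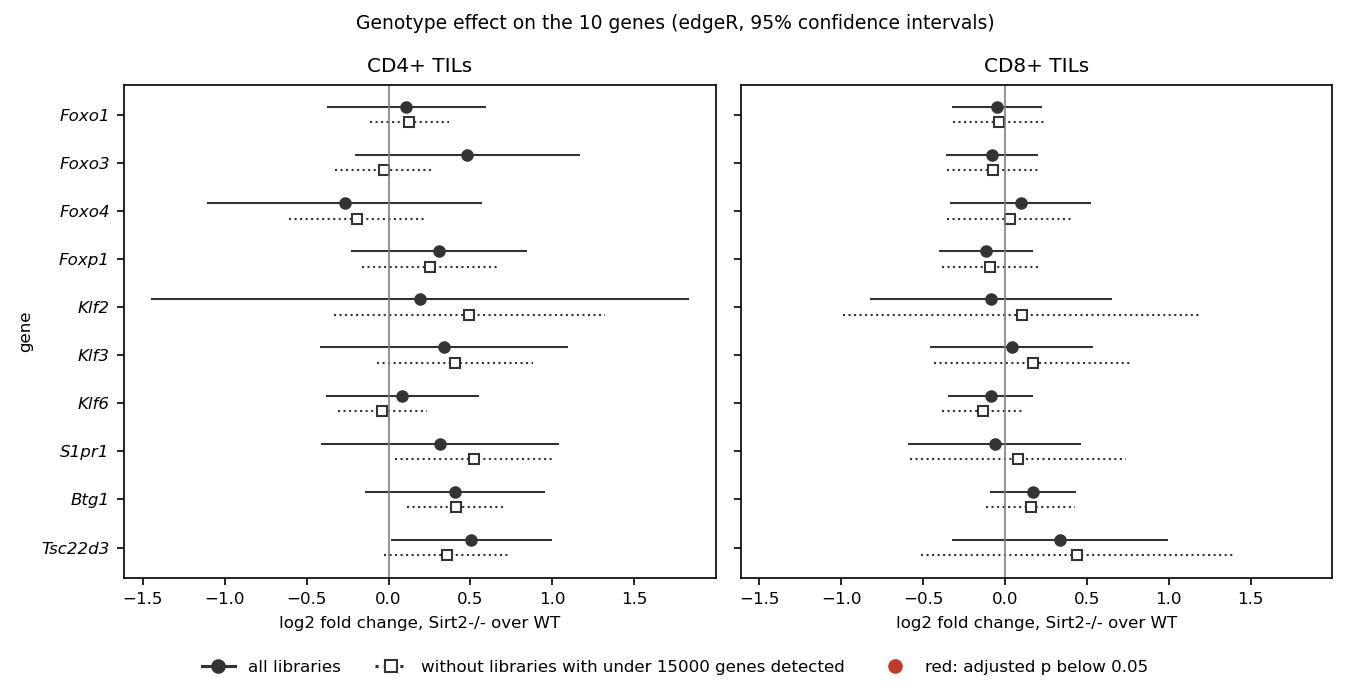
Log2 fold change of *Sirt2*-/- over WT (x axis) for the 10 genes (y axis) in CD4+ TILs, left, and CD8+ TILs, right, with 95% confidence intervals from edgeR; filled circles use all libraries and open squares leave out those with under 15000 genes detected. No gene passes the threshold, and the *Klf2* interval in CD4+ TILs (−1.45 to 1.83) is the widest.

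The difference between CD8+ and CD4+ TILs in the genotype effect was tested as an interaction over all 16 libraries. With edgeR 0 of the 10 genes passed, where 0% of 17270 genes did, and with DESeq2 and limma-voom 0 of the 10 passed as well. At an unadjusted p below 0.05 there were 0 of the 10 against 1.98% of all genes. The largest difference in size was that of *Foxo3*, −0.56 (standard error 0.36, 95% interval −1.32 to 0.19), which was −0.042 (standard error 0.19) without the 3 libraries with few genes, where again 0 of the 10 and 0% of 17993 genes passed. *Foxp1* differed by −0.42 (standard error 0.27) and *Foxo1* by −0.15 (95% interval −0.69 to 0.38). These tests do not show that the genotype effects are alike, since the intervals of all 10 genes are wider than 1 on the log2 scale.

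The transcripts of *Foxo4*, *Tsc22d3* and *S1pr1* were lower in CD8+ than in CD4+ TILs of WT mice. The comparisons of cell types use the same libraries as those of genotypes and are not independent of them. Libraries of the same number were not paired in these fits, although WT libraries matched by number, as given below. In WT TILs, 3 of the 10 genes passed the threshold, all lower in CD8+ TILs, against 11.9% of 14892 genes in either direction, 6.96% lower and 4.89% higher. *Foxo4* was lower by the most, with 10.8 ± 2.25 CPM in CD8+ against 32.2 ± 5.73 CPM in CD4+ TILs (SD, n = 4) and a log2 fold change of −1.63 (standard error 0.25, adjusted p = 0.00159 from edgeR). *Tsc22d3* measured 42.7 ± 6.31 against 91.0 ± 14.7 CPM (SD, n = 4), with a fitted log2 fold change at −1.15 (standard error 0.19, adjusted p = 0.00233 from edgeR). *S1pr1* measured 181 ± 28.7 against 294 ± 36.0 CPM (SD, n = 4), which is −0.75 on the log2 scale (standard error 0.16, adjusted p = 0.0106 from edgeR), which missed the threshold without CD8+ WT replicate 2 (adjusted p = 0.0505). *Foxp1* was at 0.58 (standard error 0.17, adjusted p = 0.0504), *Foxo1* at −0.48 (standard error 0.16, adjusted p = 0.0754) and *Foxo3* at −0.56 (standard error 0.20, adjusted p = 0.0952, all from edgeR), not past it. The 3 genes that passed and *Foxp1* separated the cell types without overlap of libraries (4 of 10, against 22.1% of all genes).

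Without CD4+ WT replicate 1 and CD8+ WT replicate 1, 8 of the 10 passed in WT TILs, against 28% of 15694 genes. The 7 lower in CD8+ TILs were *Foxo1* (−0.54, adjusted p = 0.00363 from edgeR), *Foxo3* (−0.66, adjusted p = 0.000805 from edgeR), *Foxo4*, *Klf6*, *S1pr1*, *Btg1* and *Tsc22d3*, where 13.1% of all genes were lower. *Foxp1* was the 1 that was higher (0.50, standard error 0.12, adjusted p = 0.00886 from edgeR), where 14.9% of all genes were. *Klf2* and *Klf3* did not pass in either fit, with −0.28 (95% interval −0.68 to 0.13) and −0.36 (95% interval −0.72 to 0.0086) here. The median over the 10 was −0.48 with all libraries and −0.52 without these, against −0.023 and 0.0067 over all genes. Leaving out CD4+ WT replicate 1 alone was enough for the same count of 8.

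In *Sirt2*-/- TILs, 0 of the 10 passed with all libraries, against 2.24% of 15787 genes. At an unadjusted p below 0.05 there were 7 of the 10, against 11.7% of all genes. DESeq2 called 4 of the 10 and 1339 genes in all, and limma-voom 7 of the 10 and 4481 genes in all. *Foxo4* was at −1.20 (standard error 0.44), *Tsc22d3* at −1.25 (standard error 0.36), *S1pr1* at −1.06 (standard error 0.41) and *Foxo3* at −1.05 (standard error 0.29, adjusted p = 0.127 from edgeR), with larger standard errors than in WT. The values of *S1pr1* and *Foxo3* were more negative than in WT, that of *Foxo4* was less negative and that of *Tsc22d3* was similar. *Foxo3*, *Foxo4*, *Klf6* and *Tsc22d3* separated the cell types without overlap (4 of 10, against 21.8% of all genes). Without CD4+ *Sirt2*-/- replicate 4, the library with 8169 genes, 6 of the 10 passed, all lower in CD8+ TILs, against 25.4% of 16703 genes in either direction and 11.6% lower. These were *Foxo4* (−1.27, standard error 0.14, adjusted p = 0.000151 from edgeR), *Foxo1* (−0.73, adjusted p = 0.00207 from edgeR), *Foxo3* (−0.73), *Klf6* (−0.64), *Btg1* (−0.75) and *S1pr1* (−1.31, adjusted p = 0.028 from edgeR). *Foxp1*, past the threshold in WT without the libraries with few genes, was at 0.13 (95% interval −0.34 to 0.60) in this fit, and the interaction given above did not pass. CD4+ TILs also contained the *Foxp3* transcripts given above, and the part of regulatory T cells in these differences was not tested.

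**Figure D3:**
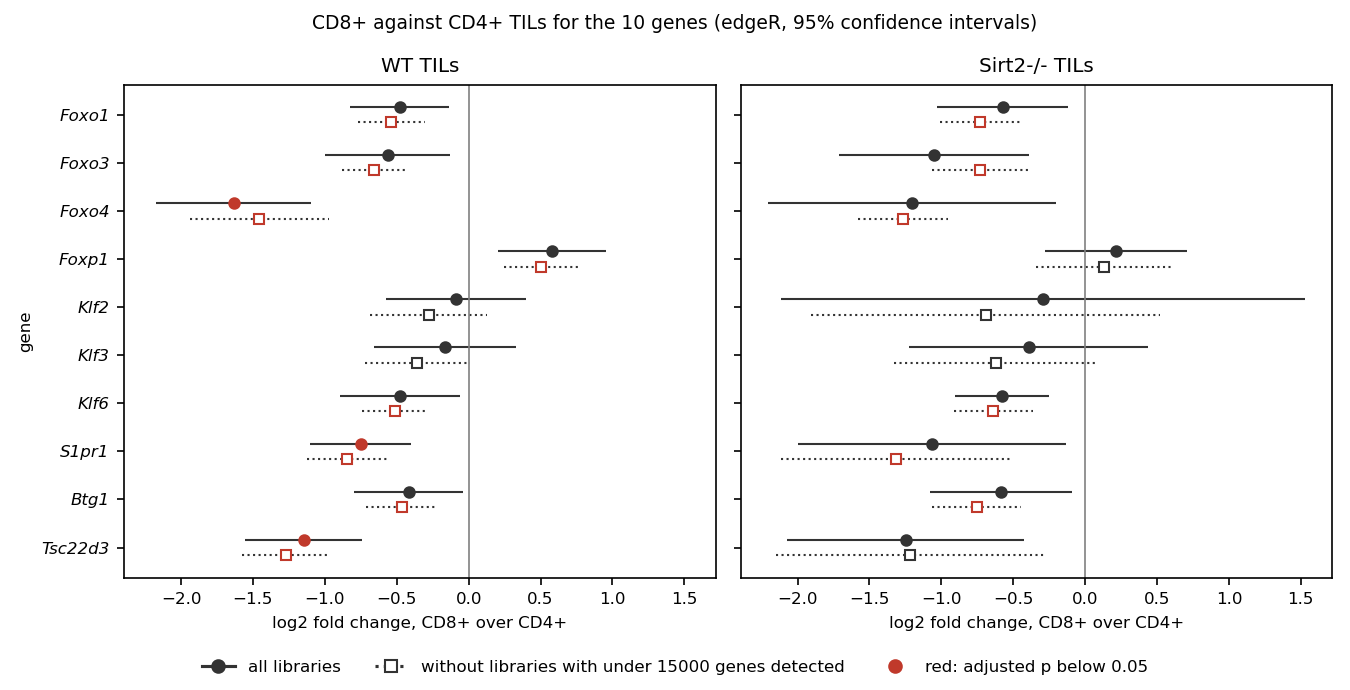
Log2 fold change of CD8+ over CD4+ TILs (x axis) for the 10 genes (y axis) in WT, left, and *Sirt2*-/- TILs, right, with 95% confidence intervals from edgeR; filled circles use all libraries, open squares leave out those with under 15000 genes detected, and red marks an adjusted p below 0.05. All values but those of *Foxp1* lie below 0, with 3 red circles in WT and 0 in *Sirt2*-/- TILs.

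Within groups, the high and low values of many of the 10 genes fell on the same libraries. Replicate 1 was the highest of the 4 CD4+ *Sirt2*-/- libraries for 9 of the 10 genes (all but *Foxo3*), against 29.3% of all genes tested, and the highest of the 4 CD8+ *Sirt2*-/- libraries for 10 of 10, against 26.3%. CD4+ *Sirt2*-/- replicate 4 was the lowest for 7 of the 10, against 69.2% of all genes in this library with few genes, and CD8+ *Sirt2*-/- replicate 4, which had 22138 genes detected, was the lowest for 6, against 23.6%. The coefficient of variation of *Klf2* over 4 libraries was 55.9% in CD8+ *Sirt2*-/- against 21.7% in CD8+ WT TILs, that of *Tsc22d3* 54.5% against 14.8% and that of *S1pr1* 38.5% against 15.8%. *Foxo4*, in contrast, had 9.55% against 20.7%. These spreads were not tested against each other. In CD4+ WT TILs, replicate 4 was the highest for 6 of the 10, against 27.6% of all genes, and replicate 1, with few genes detected, the lowest for 7, against 53.3%. In CD8+ WT TILs no replicate was the highest or the lowest for more than 4 of the 10.

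The FoxO target genes, summed per library, were also highest in replicate 1 of both *Sirt2*-/- groups, at 5299.9 CPM in CD4+ and 3332 CPM in CD8+ TILs. The other quiescence genes, summed likewise, were highest in replicate 4 in CD4+ *Sirt2*-/- TILs (5072 CPM, against 4428 CPM in replicate 1) and in replicate 1 in CD8+ *Sirt2*-/- TILs (2955 CPM). *Ets1*, a factor that restrains T cell differentiation, was highest in replicate 4 of both *Sirt2*-/- groups (1429 and 771 CPM), and the cell cycle inhibitor *Cdkn1b* in CD4+ *Sirt2*-/- replicate 4 (385 CPM, against 318 CPM in replicate 1). Single FoxO targets are given as examples, chosen after their values were seen. *Il7r*, the interleukin-7 receptor chain that FoxO1 promotes, measured 1062, 646, 521 and 339 CPM in CD4+ *Sirt2*-/- and 407, 145, 126 and 149 CPM in CD8+ *Sirt2*-/- replicates 1 to 4. *Tcf7*, a factor of naive and stem-like T cells, measured 1304, 810.3, 684 and 398 CPM and 696, 479, 338 and 472 CPM in the same groups. *Ccr7*, the lymph node homing receptor, singled out after its values were seen, measured 153, 84.0, 71.9 and 16.4 CPM and 123, 76.2, 54.3 and 57.9 CPM. In all 3 genes and both cell types *Sirt2*-/- replicate 1 stood above the other 3 *Sirt2*-/- libraries. The FoxO target *Fasl* did not follow this order. It measured 20.5, 32.1, 32.8 and 20.5 CPM in CD4+ and 55.1, 77.7, 94.8 and 79.7 CPM in CD8+ *Sirt2*-/- replicates 1 to 4.

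**Figure D4:**
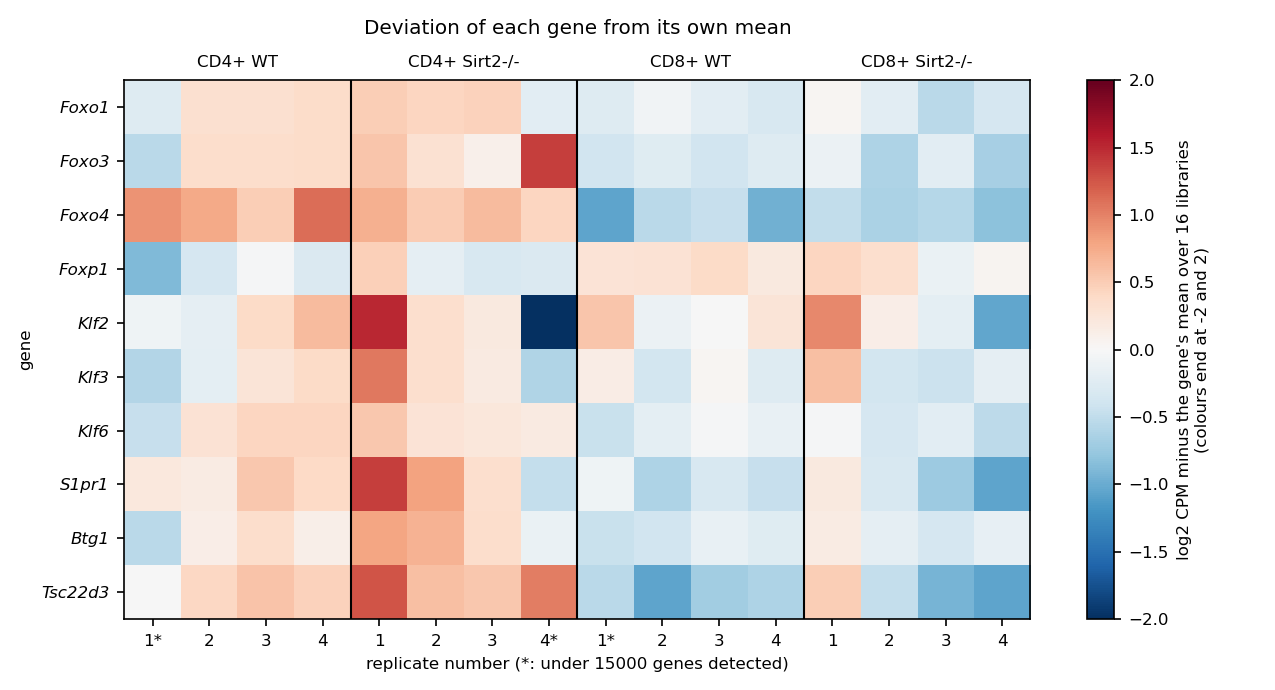
Log2 CPM of each gene (rows) in each library (columns, by group and replicate number) minus the gene's mean over 16 libraries; red is above and blue below the mean, and asterisks mark libraries with under 15000 genes detected. Replicate 1 is the highest *Sirt2*-/- library for 9 of 10 genes in CD4+ and 10 of 10 in CD8+ TILs, and *Klf2* in CD4+ *Sirt2*-/- replicate 4 (12.1 CPM) lies beyond the end of the color scale.

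Likeness of expression over the 13 libraries with at least 15000 genes detected was measured by Pearson's r of log2 CPM, as a description, since the libraries share cell type and genotype groups. The genes most like *Foxo1* among 17269 were *Ssh2*, a cofilin phosphatase (r = 0.98), *Nr1d2*, a circadian nuclear receptor (0.97), and *Tent5c*, a poly(A) polymerase (0.97). Of the other 9 genes, *Foxo4* (0.91), *Tsc22d3* (0.90), *S1pr1* (0.89) and *Klf6* (0.88) were most like *Foxo1*, and *Foxp1* was the least like it (−0.32). The genes most like *Klf2* were *Actn1*, an actin crosslinker (0.94), *Tdrp* (0.93) and the predicted gene *Gm11346* (0.93), and of the 10, *S1pr1* (0.82), *Klf3* (0.82) and *Tsc22d3* (0.76). Over all 16 libraries r with *Klf2* fell to 0.58 for *S1pr1* and 0.046 for *Tsc22d3*, and r with *Foxo1* fell to 0.54 for *Nr1d2*.

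The pathway around these genes was described from 8 lists: other FoxO and Foxp factors, other Klf factors, FoxO target genes, the PI3K, AKT, SGK and mTOR pathway, enzymes that modify FoxO proteins, other quiescence genes, homing and egress receptors and glucocorticoid response genes. Between genotypes 0 genes of any of the 8 lists passed in CD4+ or CD8+ TILs, with or without the libraries with few genes. Of 24 FoxO target genes tested, 18 were above 0 in CD4+ TILs (median 0.28 against −0.11 over all genes) and 17 in CD8+ TILs (median 0.098 against 0.011). Over all genes, 42% were above 0 in CD4+ and 51.9% in CD8+ TILs. Without the libraries with few genes the CD4+ medians were 0.13 for the FoxO targets, 0.13 for the other quiescence genes and −0.11 for the other Klf factors, against −0.0016 over all genes. Of the FoxO targets described above, the most abundant, *Tcf7*, was at 0.40 (standard error 0.31) in CD4+ and 0.18 (standard error 0.18) in CD8+ TILs. Of 15 other quiescence genes, 12 were above 0 in CD4+ TILs (median 0.32) and 9 in CD8+ TILs (median 0.049). Their most abundant members were *Ets1*, at 0.11 (standard error 0.15) in CD4+ and 0.18 (standard error 0.12) in CD8+ TILs, and *Slfn2*, a schlafen gene needed for T cell quiescence, at 0.95 (standard error 0.33) and 0.40 (standard error 0.15). The 17 genes of the PI3K pathway had medians of −0.065 and 0.018, with *Pik3cd*, the leukocyte PI3K catalytic subunit, at −0.065 (standard error 0.22) and 0.063 (standard error 0.10) and *Inpp5d*, the lipid phosphatase SHIP1, at −0.086 (standard error 0.15) and 0.089 (standard error 0.14). The 13 modifying enzymes had medians of 0.12 and −0.0063, with the 14-3-3 gene *Ywhaz* at 0.12 (standard error 0.17) and 0.12 (standard error 0.12) and the kinase *Stk4* at 0.36 (standard error 0.21) and 0.10 (standard error 0.11). Of the other Klf factors, 9 of 14 were tested, and *Klf13*, the most abundant, was at −0.0063 (standard error 0.25) and 0.18 (standard error 0.15), and *Klf7* at 0.84 (standard error 0.39) and 0.091 (standard error 0.13). Their medians were −0.30 and 0.0067, those of the homing and egress receptors −0.16 over 9 genes and 0.14 over 10, and those of the 10 glucocorticoid response genes −0.048 and 0.16. The integrin chain *Itgal* was at −0.048 (standard error 0.20) and 0.18 (standard error 0.12), the glucocorticoid receptor *Nr3c1* at 0.23 (standard error 0.17) and −0.046 (standard error 0.11) and *Foxp3* at −0.44 (standard error 0.30) in CD4+ TILs.

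Between CD8+ and CD4+ WT TILs, 10 of 24 FoxO target genes passed with all libraries, 8 lower and 2 higher in CD8+ TILs, against 11.9% of all genes. Without the libraries with few genes 14 were lower and 3 higher, against 28% of all genes. Lower with all libraries were the cyclin *Ccng2* (−1.59, standard error 0.16, adjusted p = 0.000135 from edgeR), the insulin receptor substrate *Irs2* (−1.57, standard error 0.19), *Il7r* (−1.54, standard error 0.22) and the cell cycle inhibitor *Cdkn1b* (−1.16, standard error 0.18). *Fasl* and *Bcl2l11*, which encode the death ligand FasL and the apoptosis inducer BIM, were the 2 that were higher (1.63 and 1.27), and are named after their values were seen, as is *Irs2* in *Sirt2*-/- TILs. In *Sirt2*-/- TILs 5 of 24 passed, 4 lower (*Cdkn1b*, −1.39, *Sesn3*, −0.86, *Ccng2*, −1.63 and *Irs2*, −1.67) and *Fasl* higher (1.53, standard error 0.27, adjusted p = 0.0273 from edgeR), against 2.24% of all genes. Without CD4+ *Sirt2*-/- replicate 4, 13 were lower and 2 higher, against 25.4% of all genes. With all libraries the list's median was −0.67 in WT and −0.63 in *Sirt2*-/- TILs.

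Upstream, *Pik3cd* was higher in CD8+ TILs (0.63 in WT and 0.83 in *Sirt2*-/- TILs), while the AKT phosphatase *Phlpp1* (−1.85 and −1.58) was lower, both past the threshold in both genotypes. *Tsc1*, a brake on mTOR, was lower in CD8+ WT TILs (−0.58). Of the modifying enzymes, the acetyltransferases *Kat2b*, *Crebbp* and *Ep300* were lower in CD8+ WT TILs (−1.10, −0.58 and −0.44), and 0 passed in *Sirt2*-/- TILs with all libraries. Without the libraries with few genes the same 3 were lower in CD8+ WT TILs, and 4 were higher (*Sirt3*, *Skp2*, *Prmt1* and *Ywhaz*). Without CD4+ *Sirt2*-/- replicate 4, *Kat2b*, *Crebbp*, *Ep300*, *Sirt1* and *Stk4* were lower and *Prmt1* higher in CD8+ *Sirt2*-/- TILs. Of 15 other quiescence genes, 4 were lower in CD8+ WT TILs (*Runx1*, −2.37, *Ets1*, −1.14, *Tob1*, −1.69, and *Rb1*, −0.61) and 3 in CD8+ *Sirt2*-/- TILs (*Runx1*, *Ets1* and *Rb1*). Without the libraries with few genes 8 were lower and 1 higher in WT TILs, and 7 lower and 2 higher in *Sirt2*-/- TILs. Of 9 homing and egress receptors tested in WT, the integrin chains *Itgb7* (−1.16) and *Itgae* (−1.48) and the chemokine receptors *Cxcr4* (−1.72) and *Cxcr3* (−1.16) were lower in CD8+ TILs, *Cxcr4* also in *Sirt2*-/- TILs (−1.70). Of 10 glucocorticoid response genes, the receptor *Nr3c1* (−1.09), *Dusp1* (−2.21) and *Nfkbia* (−1.28) were lower in CD8+ WT TILs, as *Tsc22d3* was, and *Nr3c1* (−1.31) and *Dusp1* (−1.80) in CD8+ *Sirt2*-/- TILs. Of the other Klf factors 0 of 9 passed in either genotype with all libraries, and of the other forkhead factors tested *Foxp3* did (−7.97 and −6.83) and *Foxp4* did not. Without the libraries with few genes *Foxp4* was lower in CD8+ TILs of both genotypes, *Klf10* was higher and *Klf4* lower in both, and *Klf12* and *Klf13* were lower in WT TILs. In the same fits, the PI3K pathway had 5 genes lower and 2 higher in WT and 5 lower and 3 higher in *Sirt2*-/- TILs, the homing and egress receptors 5 lower and 3 higher in WT and 4 lower and 2 higher in *Sirt2*-/- TILs, and the glucocorticoid response genes 6 lower and 2 higher in WT and 5 lower and 2 higher in *Sirt2*-/- TILs.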

How the data were processed

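Per the labels, RNA of sorted CD4+ and CD8+ TILs was made into libraries with a stranded low-input kit and sequenced on an Illumina instrument; the submitters' processing notes name STAR, HTSeq and the mm10 build, with versions and the strand setting not given in the sources used here. The authors deposited raw counts per gene for 16 libraries, and all 55450 gene identifiers matched GENCODE M21. Strand setting and overlapping genes can move counts between gene pairs. Groups of 4 were taken from the labels. For each comparison edgeR 4.0.16 (R 4.3.3) was run with filterByExpr, TMM scaling and the robust quasi-likelihood test on the libraries compared, and p-values were adjusted over all genes tested (Benjamini–Hochberg, threshold 0.05). The interaction used 16 libraries. CPM values use library totals multiplied by TMM factors over all 16 libraries, and log2 values for likeness a prior count of 2. Alternatives were DESeq2 1.42.0, limma-voom (limma 3.58.1), other filters, a replicate block, leaving out each library, and leaving out libraries with under 15000 genes detected. The test was checked on simulated counts with large changes and the same spread for every gene. That check does not cover small changes or libraries with few genes detected. The 10 genes, the lists and the rule for named genes (all members, from each list the 2 most abundant genes and, per comparison, at most 4 past the threshold with the smallest p, and the 3 genes most like *Foxo1* and *Klf2*) were chosen with earlier results of these data known. Some genes of the lists are counted in the totals but not reported here by name.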

Additional observations from a re-analysis of the deposited data

Results flagged for a closer look

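In groups of 4, the gap of an extreme library to its nearest neighbor was compared with the group's range (Dixon's test at the 95% level). Of the 40 groups formed by 10 genes and 4 sample groups, 4 held a library that stood apart, where chance gives about 2, since about 1 in 20 is expected. *Foxo1* was low in CD4+ *Sirt2*-/- replicate 4, at 113 CPM, and in CD4+ WT replicate 1, at 109 CPM. *Foxo3* was low in CD4+ WT replicate 1, at 60.0 CPM. *Foxp1* was high in CD4+ *Sirt2*-/- replicate 1, at 294 CPM. The first 3 values come from libraries with under 15000 genes detected.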

How the results depend on the processing

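Of 940 values of the 10 genes under alternatives, 833 kept direction and call and 38 reversed; the cause was not tested. For the CD4+ genotype comparison, 0 genes passed as reported, against 7 with DESeq2, 4 with limma-voom and quality weights and 6 omitting libraries under 15000 genes. In the CD4+ genotype comparison, sign changed for *Foxo3* (−0.065 with limma-voom and quality weights), *Klf6* (−0.068 with limma-voom and quality weights), *Klf2* (−0.27 with the replicate block), *Foxo3* (−0.029 omitting libraries under 15000 genes) and *Klf6* (−0.037 omitting libraries under 15000 genes). Leaving out each library in turn for the CD4+ genotype comparison gave *Klf2* −0.49 to 0.58, *Klf6* −0.084 to 0.17, *S1pr1* −0.032 to 0.56 and *Foxo1* −0.017 to 0.26. For the CD8+ genotype comparison, 1 gene passed as reported, against 28 with DESeq2, 5 with limma-voom and quality weights, 5 without a filter, 4 with the replicate block and 7 omitting libraries under 15000 genes. In the CD8+ genotype comparison, sign changed for *S1pr1* (0.034 with limma-voom and quality weights), *Klf2* (0.10 omitting libraries under 15000 genes) and *S1pr1* (0.080 omitting libraries under 15000 genes). Leaving out each library in turn for the CD8+ genotype comparison gave genes past the threshold 0 to 7, *Klf3* −0.23 to 0.17, *Tsc22d3* −0.084 to 0.51, *Foxo1* −0.14 to 0.051, *Klf2* −0.49 to 0.16, *S1pr1* −0.31 to 0.10 and *Foxo3* −0.17 to 0.00058. For CD8+ against CD4+ WT TILs, 1765 genes passed as reported, against 2651 with DESeq2, 5504 with limma-voom and quality weights, 4394 omitting libraries under 15000 genes, 811 with 16 libraries in 1 model and 4981 with the replicate block omitting libraries under 15000 genes. Of the 10 genes, 3 passed there as reported, against 5 with DESeq2, 9 with limma-voom and quality weights, 8 omitting libraries under 15000 genes and 9 with the replicate block omitting libraries under 15000 genes. Leaving out each library in turn for CD8+ against CD4+ WT TILs gave genes past the threshold 1022 to 2767, the count of the 10 genes 2 to 8, *Klf2* −0.22 to 0.12 and *Klf3* −0.24 to 0.028. For CD8+ against CD4+ *Sirt2*-/- TILs, 354 genes passed as reported, against 1339 with DESeq2, 4481 with limma-voom and quality weights, 907 with at least 10 counts in every library, 108 with the replicate block, 4250 omitting libraries under 15000 genes, 781 with 16 libraries in 1 model and 4524 with the replicate block omitting libraries under 15000 genes. Of the 10 genes, 0 passed there as reported, against 4 with DESeq2, 7 with limma-voom and quality weights, 3 with at least 10 counts in every library, 6 omitting libraries under 15000 genes, 2 with 16 libraries in 1 model and 9 with the replicate block omitting libraries under 15000 genes. In CD8+ against CD4+ *Sirt2*-/- TILs, sign changed for *Klf2* (0.22 with the replicate block). Leaving out each library in turn for CD8+ against CD4+ *Sirt2*-/- TILs gave genes past the threshold 111 to 4250, *Klf2* −0.71 to 0.38 and the count of the 10 genes 0 to 6. For the interaction, 0 genes passed as reported, against 2 with DESeq2. In the interaction, sign changed for *Tsc22d3* (0.16 with limma-voom and quality weights), *Klf2* (0.25 with the replicate block) and *Tsc22d3* (0.084 omitting libraries under 15000 genes). Leaving out each library in turn for the interaction gave *Klf2* −0.67 to 0.42, *Klf3* −0.58 to 0.034, *Klf6* −0.25 to 0.0070 and *Tsc22d3* −0.60 to 0.0091. Numbers of calls above rest on CD4+ WT replicate 1 (8 of the 10 genes passed in WT TILs without it), CD8+ WT replicate 2 (2 without it) and CD4+ *Sirt2*-/- replicate 4 (6 passed in *Sirt2*-/- TILs without it). Same-numbered CD4+ and CD8+ libraries deviated together over 0.1 in 3 of 4 WT pairs, where 8 of 8 libraries correlated best with their own number, and in 1 of 4 *Sirt2*-/- pairs (3 of 8), so the numbers were not taken as pairing; the replicate block left 3 of the 10 genes past the threshold in WT TILs and changed no other call of these genes. The block omitting libraries was chosen after seeing the data. Wide intervals, above all for *Klf2*, limit what 4 libraries per group can show.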

Other observations

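*Foxo4* and *Tsc22d3* lie on the X chromosome. In WT replicate 2, the pair of libraries with the highest Y-linked and the lowest *Xist* values, *Foxo4* measured 30.7 CPM in CD4+ and 12.4 CPM in CD8+ TILs, inside the range of the other WT libraries. *Tsc22d3* measured 93.8 CPM in CD4+ TILs, inside that range, and 33.8 CPM in CD8+ TILs, the lowest of the WT values. These values are all from WT libraries and do not address the difference in Y-linked reads between the genotypes.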
